A study of Mus musculus with 22 samples.

Results

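The later stage of adipocyte differentiation, from day 2 to day 6, was compared between mouse C3H 10T1/2 cells with DNMT3A W330R and with DNMT3A WT. The 8 libraries of the comparison were chosen by their labels from the 22 of the series, with 2 libraries for each genotype on each day. The quantity tested was the W330R change from day 2 to day 6 minus the WT change over the same days, with the replicate number as a block. On the log2 scale a negative value means that the RNA level rose less, or fell more, in W330R than in WT.

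C3H 10T1/2 is a mesenchymal line that can turn into fat cells. All 8 samples were grown in DMEM with 10% FBS and went through the same induction for 2 days, with 5 µM troglitazone, 5 µg/mL insulin, 1 µM dexamethasone and 0.5 mM isobutylmethylxanthine. The medium then held insulin at 5 µg/mL as the only added agent. The day 2 libraries thus come from the end of the induction, and the day 6 libraries from cells kept in insulin medium. The series describes lines that express forms of DNMT3A1, but the labels do not name the vector or promoter, do not say whether the cells' own Dnmt3a is still present, and do not say whether a genotype is 1 clone or whether replicates come from separate cultures. The p-values therefore measure only the spread between the 18 libraries of the fit, which may be technical. In bulk RNA, fewer fat cells and less RNA of a gene per fat cell cannot be told apart.

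DNMT3A is an enzyme that adds methyl groups to CpG sites in DNA. Its PWWP domain, where W330 lies, is known for binding methylated histone H3. Fat cell differentiation is known to run through the transcription factors PPARG and CEBPA, and troglitazone is a ligand that activates PPARG. In the later stage, fat cells turn on the enzymes that make fatty acids and triglycerides, the proteins that coat lipid droplets, secreted proteins such as adiponectin, and more mitochondria.

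Read counts summed to between 13567589 and 47453908 in the 8 libraries. Levels are given as CPM, counts scaled to a fixed library size, after TMM scaling, which compares a gene between libraries and does not compare levels between genes. Markers of fat cells and of mesenchymal stroma were present in all 8 libraries. The 12 adipocyte markers summed to between 2925 and 3305 CPM in WT on day 2 and between 5348 and 9889 CPM on day 6. In W330R the same sums were between 1977 and 2568 CPM on day 2 and between 1562 and 1794 CPM on day 6. Fabp4 was the largest part of the adipocyte sum in every library. It held 2141 and 1946 CPM in WT and 1859 and 1418 CPM in W330R on day 2. On day 6 it held 1538 and 4514 CPM in WT and 570 and 764 CPM in W330R. The sums thus follow Fabp4 in large part, while the markers Adipoq, Cfd, Slc2a4 and Retn rose in both genotypes. The 8 stroma markers summed to between 1435 and 1451 CPM in WT on day 2, 2393 to 2452 CPM in W330R on day 2, 4946 to 6861 CPM in WT on day 6 and 6600 to 8987 CPM in W330R on day 6. Markers of other cell types were low. The 12 macrophage markers summed to at most 21.7 CPM in a library. The 10 endothelial markers summed to at most 16.9 CPM and the 13 skeletal muscle markers to at most 15.4 CPM. Among them C1qa, C1qb, Tyrobp, Cldn5, Ckm, Myod1 and Myog held 0 counts in all 8 libraries. Others held counts in every library, such as Cd14 (44 to 409), Cd68 (51 to 160), Fcgr1 (11 to 44), Pecam1 (16 to 44) and Vwf (8 to 57). Cd14 made up most of the highest macrophage sum, with 16.9 CPM in W330R day 6 replicate 2. The endothelial sum was highest in W330R on day 6 (15.4 and 16.9 CPM, against 5.40 and 8.78 in WT), and the muscle sum was highest in WT on day 6 (8.43 and 15.4 CPM, against 4.14 and 5.57 in W330R). On day 6 a single gene made up most of the endothelial sum in W330R, Tek with 12.4 and 14.4 CPM, and of the muscle sum in WT, Des with 6.42 and 14.3 CPM. What these markers contribute to the results was not tested.

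Dnmt3a itself differed on day 2. Its level was 177 and 326 CPM in WT on day 2, 113 and 149 CPM in WT on day 6, 89.7 and 142 CPM in W330R on day 2, and 121 and 141 CPM in W330R on day 6. The WT libraries on day 2 were the highest. The level fell by 0.89 on the log2 scale in WT (adjusted p = 0.0019), and the W330R change was 0.22 (adjusted p = 0.32). The difference between these changes was 1.12 ± 0.22 (SE) with an adjusted p of 0.111 by edgeR, which did not call it. DESeq2 called it (adjusted p = 0.00116), and over all 16 alternatives the adjusted p lay between 0.00116 and 0.9999. The counts cannot separate RNA from the introduced and the cells' own gene, so they do not check the genotype labels.

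Both genotypes went through a large change of RNA levels between day 2 and day 6. In WT 2408 genes rose (16.7% of the 14423 tested) and 1994 fell (13.8%). In W330R 2240 rose (15.5%) and 1990 fell (13.8%). The comparison of the changes called far fewer genes. A difference of 2 changes has a larger SE than either change, so the smaller count does not show that the changes were alike. For Insig1 the SE was 0.19 for the difference, 0.14 for the WT change and 0.13 for the W330R change. With edgeR's quasi-likelihood test and a Benjamini-Hochberg adjusted p under 0.05, 11 genes differed (0.0763%), of which 10 had a lower change in W330R (0.0693%) and 1 a higher change (0.00693%). At an unadjusted p under 0.05 there were 799 genes lower (5.54%) and 429 higher (2.97%). DESeq2 called 137 lower (1.18% of the 11626 genes to which it gave an adjusted p) and 44 higher (0.378%), the 11 among them. The median difference over all genes tested was -0.00 on the log2 scale. The count of 11 depended on the fit: it was 5 without the replicate block, 0 with the 8 libraries alone (922 at an unadjusted p under 0.05), and 0 when any 1 of 6 libraries was left out, namely either day 2 library of WT or of W330R or replicate 2 of day 6 in WT or W330R (753 to 1346 at an unadjusted p under 0.05). It was 6 without W330R day 6 replicate 1 and 27 without WT day 6 replicate 1.

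**Figure D1:**
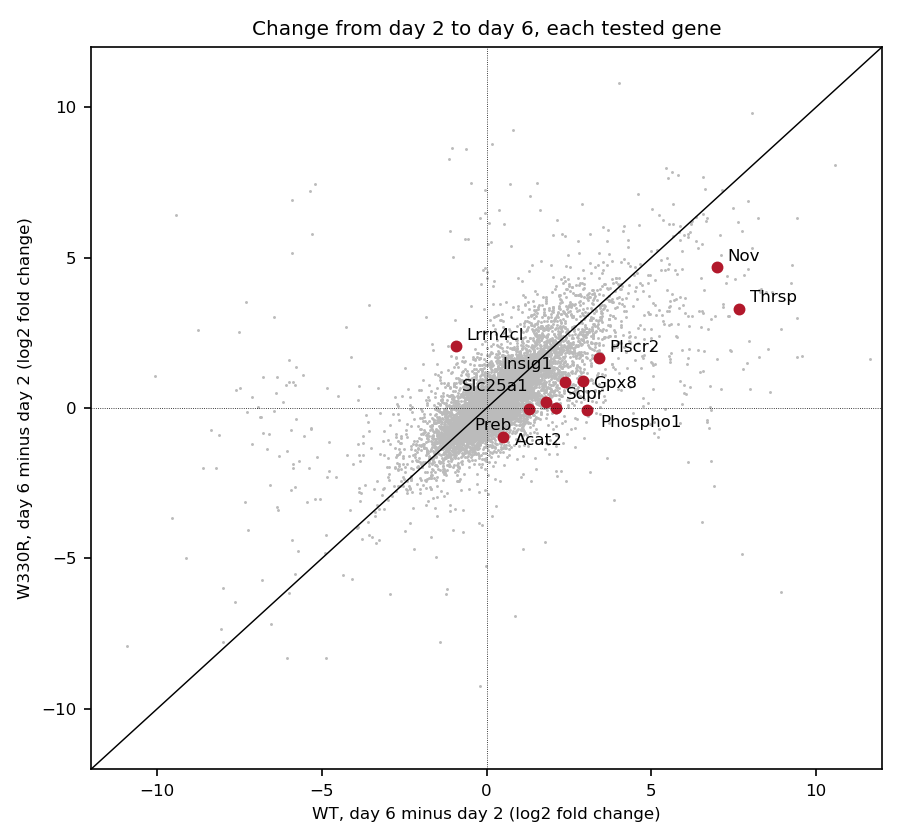
Each dot is 1 of the 14423 genes tested, with the log2 fold change from day 2 to day 6 in WT on the horizontal axis and in W330R on the vertical axis; the diagonal marks equal change. The 11 called genes are drawn larger and named, with 10 below the diagonal and Lrrn4cl above it.

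The 11 genes fall into lipid and sterol metabolism (Thrsp, Slc25a1, Insig1, Acat2), the secretory pathway and membranes (Preb, Gpx8, Plscr2, Sdpr), a phosphatase (Phospho1), a secreted matrix protein (Nov) and a membrane protein with leucine-rich repeats (Lrrn4cl). All 11 had the same sign within replicate 1 and within replicate 2, the libraries on which the calls rest. Of all 14423 genes 4540 were negative and 4398 positive within both replicates. In WT 10 of them rose and 1 fell, and in W330R 6 rose and 1 fell. At an adjusted p under 0.05, W330R was called above WT on day 2 for 5 of the 11 (3.0% of all genes were called higher on that day). On day 6 it was called below WT for 8 (7.09% of all genes) and above WT for 3 (3.47%). The 11 genes were picked by a difference built from these same values, so these counts follow in part from the call and are no separate evidence.

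Thrsp encodes a nuclear protein known to promote lipogenesis. Its level in WT was 0.535 and 0.449 CPM on day 2 and 65.6 and 136 CPM on day 6. In W330R it was 1.14 and 1.07 CPM on day 2 and 11.03 and 10.7 CPM on day 6. On day 2 all 4 libraries were low, with W330R above WT, and on day 6 both WT libraries were well above both W330R libraries. Thrsp rose 204-fold in WT and 9.90-fold in W330R, a difference of -4.36 ± 0.61 (log2, SE, adjusted p = 0.032).

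Slc25a1 encodes the mitochondrial citrate carrier, which exports the carbon used for fatty acid and sterol synthesis. WT held 127 and 181.1 CPM on day 2 and 481 and 581 CPM on day 6, and W330R held 112 and 138 CPM on day 2 and 153 and 133 CPM on day 6. The W330R levels on day 6 stayed within the range of the WT libraries on day 2. The rise was 3.46-fold in WT (adjusted p = 3.7e-05), whereas the W330R change of 0.21 (log2) was not called (adjusted p = 0.34). The difference was -1.58 ± 0.22 (log2, SE, adjusted p = 0.032).

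Insig1 encodes a membrane protein of the endoplasmic reticulum that retains the SREBP-SCAP complex and is itself a target of SREBP. Its level on day 2 was nearly the same in both genotypes, with 77.9 and 83.1 CPM in WT and 84.6 and 82.3 CPM in W330R. On day 6 it was 379 and 450 CPM in WT and 148 and 159 CPM in W330R. Insig1 rose in both genotypes, 5.15-fold in WT and 1.84-fold in W330R, and the groups did not overlap on day 6. The difference was -1.49 ± 0.19 (log2, SE, adjusted p = 0.0282).

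Acat2 encodes cytosolic acetoacetyl-CoA thiolase, the first step of the mevalonate pathway, and was the only called gene that moved in opposite directions with the fall in W330R. WT held 111 and 136 CPM on day 2 and 155 and 192 CPM on day 6. W330R held 174 and 189 CPM on day 2 and 89.3 and 97.8 CPM on day 6. The order of the genotypes turned over between the days. Acat2 rose 1.41-fold in WT (adjusted p = 0.0086) and fell by 0.96 on the log2 scale in W330R (adjusted p = 0.00028), a difference of -1.45 ± 0.17 (SE, adjusted p = 0.0156). Of the 50-base stretches of its transcripts, 39.1% also occur in Acat3, so that reads may be split between these genes.

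Preb encodes a guanine nucleotide exchange factor for SAR1, which starts the budding of transport vesicles from the endoplasmic reticulum. Its levels were 45.5 and 37.4 CPM in WT and 43.9 and 38.7 CPM in W330R on day 2. On day 6 they were 99.3 and 101 CPM in WT and 44.5 and 36.7 CPM in W330R. Only the WT libraries on day 6 stood apart from the other 6 libraries. Preb rose 2.43-fold in WT, the W330R change was -0.03 (log2, adjusted p = 0.91), and the difference was -1.31 ± 0.20 (SE, adjusted p = 0.0443).

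Phospho1 encodes a phosphatase of phosphocholine and phosphoethanolamine. WT held 20.3 and 30.2 CPM on day 2 and 138 and 288 CPM on day 6, whereas W330R held 30.3 and 23.9 CPM on day 2 and 26.4 and 25.1 CPM on day 6. Again only WT on day 6 stood apart. The WT rise was 8.35-fold, the W330R change was -0.08 (log2, adjusted p = 0.88) and the difference was -3.14 ± 0.45 (SE, adjusted p = 0.032). The annotation places 85.4% of its 50-base stretches also in transcripts of Zfp652, whose own difference was -0.09 (log2, adjusted p = 0.989). On the opposite strand Phospho1 overlaps Abi3 over 2067 bases, and the difference of Abi3 was -2.19 (adjusted p = 0.652).

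Sdpr, also called Cavin2, encodes a coat protein of caveolae, the membrane pits that are abundant in fat cells. WT held 62.0 and 51.0 CPM on day 2 and 210.0 and 268 CPM on day 6, and W330R held 125 and 103 CPM on day 2 and 129 and 102 CPM on day 6. W330R was thus above WT on day 2 and below it on day 6. Sdpr rose 4.27-fold in WT, the W330R change was 0.01 (log2, adjusted p = 0.98) and the difference was -2.08 ± 0.29 (SE, adjusted p = 0.032).

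Gpx8 encodes a peroxidase of the endoplasmic reticulum. It held 27.0 and 30.0 CPM in WT and 57.9 and 47.3 CPM in W330R on day 2, and 161 and 272 CPM in WT and 107 and 87.4 CPM in W330R on day 6. It rose in both genotypes, 7.55-fold in WT and 1.85-fold in W330R, from a higher start in W330R. The difference was -2.03 ± 0.31 (log2, SE, adjusted p = 0.0466). Like Phospho1, Gpx8, Preb and Sdpr each overlap a gene on the opposite strand (Cdc20b, Abhd1 and 9330175M20Rik), and the sources used here do not say whether counting used strand.

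Nov, also called Ccn3, encodes a secreted protein of the extracellular matrix, and Plscr2 a phospholipid scramblase. Nov held 3.21 and 0.998 CPM in WT and 32.2 and 11.5 CPM in W330R on day 2, and 354 and 156 CPM in WT and 750.1 and 333 CPM in W330R on day 6. Plscr2 held 1.84 and 1.95 CPM in WT and 15.5 and 8.94 CPM in W330R on day 2, and 22.8 and 18.4 CPM in WT and 39.5 and 36.1 CPM in W330R on day 6. Unlike the genes above, both were higher in W330R on both days, by 3.38 (log2, adjusted p = 0.00018) and 1.09 (adjusted p = 0.0073) for Nov and by 2.62 (adjusted p = 0.00018) and 0.89 (adjusted p = 0.0077) for Plscr2. Their difference in change was -2.29 ± 0.33 (log2, SE, adjusted p = 0.032) for Nov and -1.74 ± 0.26 (adjusted p = 0.0439) for Plscr2. It therefore stands for a ratio between the genotypes that was present on day 2 and smaller on day 6. In CPM the gap between the genotypes was larger on day 6 for both genes.

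Lrrn4cl was the only gene with a higher change in W330R. Its level was 6.65 and 8.18 CPM in WT on day 2, 3.67 and 4.09 CPM in WT on day 6, 4.12 and 4.64 CPM in W330R on day 2, and 16.5 and 20.4 CPM in W330R on day 6. WT was the higher genotype on day 2, without a called difference (adjusted p = 0.10), and W330R on day 6. Lrrn4cl fell by 0.93 in WT (log2, adjusted p = 0.014) and rose by 2.07 in W330R (adjusted p = 0.00023), a difference of 3.0 ± 0.35 (SE, adjusted p = 0.0156).

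**Figure D2:**
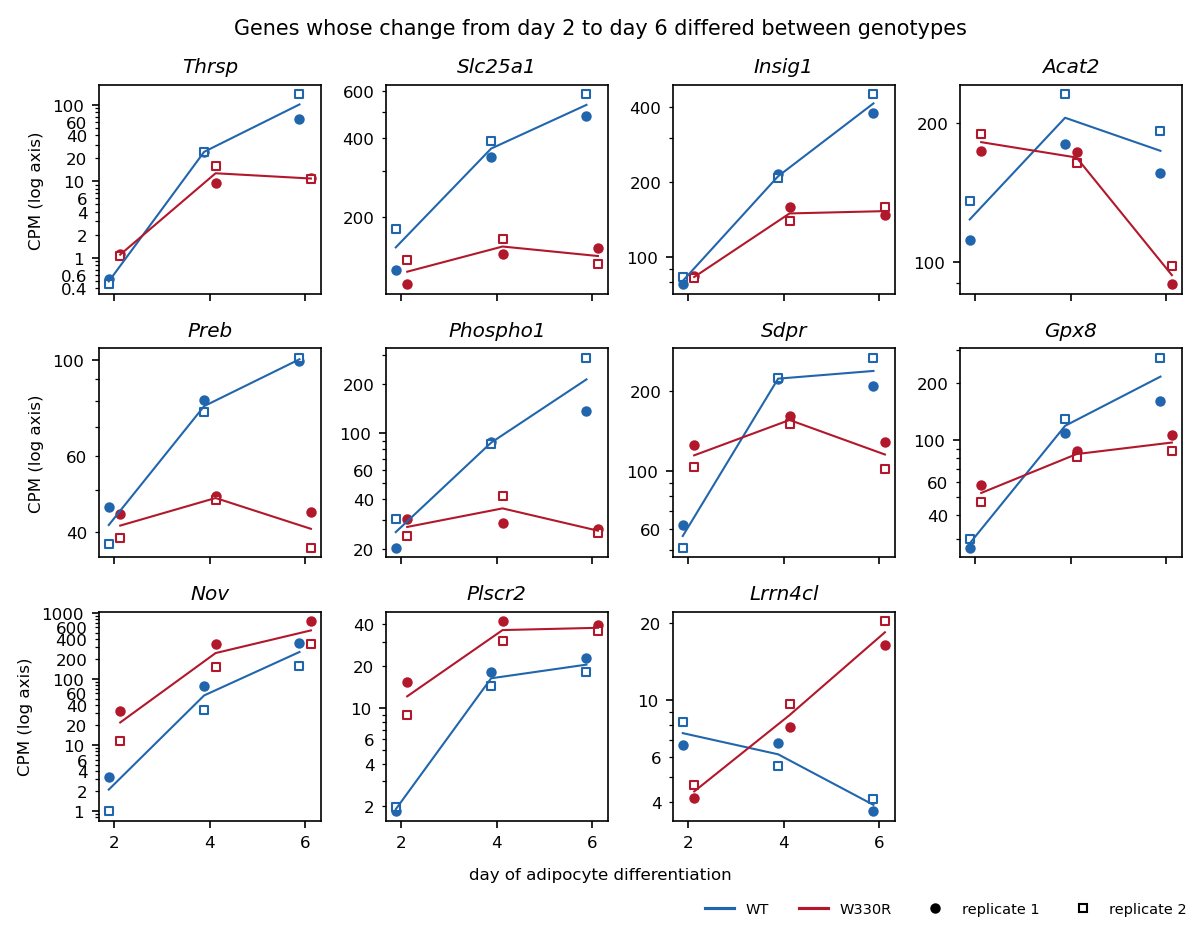
CPM on a log axis of the 11 called genes on days 2, 4 and 6, with 2 libraries for each genotype and day as points and their mean as a line (WT blue, W330R red). In 8 of the genes W330R lies below WT on day 6, in Nov and Plscr2 it lies above WT throughout, and in Lrrn4cl it ends above WT.

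The day 4 libraries carry no weight in the tested difference, but they are part of the fit that gave its filter, spread and replicate block. They show the levels between both days. Insig1 held 215 and 208 CPM in WT and 159.6 and 140.4 CPM in W330R on day 4, and Slc25a1 held 337 and 390 CPM in WT and 145 and 165 CPM in W330R. For all 10 called genes with a lower change, the fitted difference was negative from day 2 to day 4 and again from day 4 to day 6. It was -2.11 and -2.26 for Thrsp and -1.54 and -0.54 for Sdpr. Both parts add up to the difference by which these genes were picked, so their shared sign is no separate evidence. Taken over all genes, edgeR called 0 differences from day 2 to day 4 (722 at an unadjusted p under 0.05, 5.01%) and 0 from day 4 to day 6 (254, 1.76%), and no other tool was run on these shorter spans.

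Of the 4 called genes with a CCAAT box before the first annotated exon, Slc25a1, Insig1 and Sdpr are shown with the DNA before their start, as genes of differing function whose rise in WT was smaller or not called in W330R. The bases come from RefSeq on GRCm38.p6, not from the GRCm39 build named in the submitters' processing notes, and are written 5′ to 3′ along the gene up to the first annotated exon, with the CCAAT box, the letters bound by the factor NF-Y, in capitals (ATTGG where it lies on the other strand).
Slc25a1, chr16:17928220-17928469, minus strand: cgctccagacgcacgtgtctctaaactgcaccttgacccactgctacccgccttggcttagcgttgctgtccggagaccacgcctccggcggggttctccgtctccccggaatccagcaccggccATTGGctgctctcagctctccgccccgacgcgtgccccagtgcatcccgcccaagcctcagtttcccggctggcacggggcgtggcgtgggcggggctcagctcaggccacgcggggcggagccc
Insig1, chr5:28071162-28071362, plus strand: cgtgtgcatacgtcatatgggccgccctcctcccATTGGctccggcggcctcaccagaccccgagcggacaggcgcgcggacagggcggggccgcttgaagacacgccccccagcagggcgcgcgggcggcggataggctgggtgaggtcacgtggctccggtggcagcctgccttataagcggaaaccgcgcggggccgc
Sdpr, chr1:51288876-51289125, plus strand: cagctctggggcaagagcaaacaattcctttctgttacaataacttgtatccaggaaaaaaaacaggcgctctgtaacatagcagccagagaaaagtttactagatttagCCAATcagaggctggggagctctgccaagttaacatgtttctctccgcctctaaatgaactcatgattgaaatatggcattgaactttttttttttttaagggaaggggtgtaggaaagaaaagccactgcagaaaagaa
The Slc25a1 and Insig1 stretches hold 25 CpG sites each and the Sdpr stretch holds 2, so the CpG content of these starts differs widely.

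The 250 bases before the RefSeq start were at hand for 8 of the 10 genes with a lower change and for 10805 of all genes tested. CCAAT, on either strand, was in 6 of the 8 and in 37.0% of all. In Thrsp and Preb each match lay in the stretch that runs into a GENCODE exon, so that 4 genes hold a match before any annotated exon, and the windows of all genes were not trimmed in this way. CACGTG, the E-box core, was in 3 of the 8 and in 8.10% of all, TCACNCCAC, a form of the sterol response element, in 0 of 8 and in 0.935% of all, and TTGCNNAA, a C/EBP pattern, in 0 of 8 and in 7.45% of all. The median number of CpG sites was 14.5 for the 8 genes and 15 for all. The motifs were chosen after the called genes were known, and letter matches are a description of the sequence only. Plscr2, Nov and Lrrn4cl were not among the promoters.

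The fat cell regulators and products chosen by name showed the same side of the comparison more often than a called difference. Of 13 such genes tested, 12 had a negative difference (50.1% of all genes did) and 0 were called by edgeR. In WT 9 of the 13 rose from day 2 to day 6 (16.7% of all genes did), and in W330R 4 rose (15.5% of all) and 2 fell (13.8% of all). On day 6 11 of the 13 were lower in W330R (7.09% of all). At an unadjusted p under 0.05, 6 of the 13 differences were lower (5.54% of all genes) and 0 higher (2.97% of all), and DESeq2 called 2 of them. On day 2, 4 were already lower (1.96% of all genes were lower on that day).

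Pparg, the master regulator of fat cell differentiation, held 31.3 and 57.9 CPM in WT and 46.4 and 45.9 CPM in W330R on day 2, and 65.3 and 95.1 CPM in WT and 35.8 and 38.02 CPM in W330R on day 6. The genotypes overlapped on day 2 and did not on day 6. Pparg rose in WT by 0.86 (log2, adjusted p = 0.015), the W330R change was -0.32 (adjusted p = 0.31), and the difference of -1.18 ± 0.32 (SE) had an adjusted p of 0.259. Cebpa, its partner, was low in W330R at both ends, with 16.7 and 19.4 CPM on day 2 and 23.4 and 18.1 CPM on day 6 against 77.9 and 136 CPM and then 84.3 and 82.2 CPM in WT. Its change was not called in either genotype, and the difference was 0.56 ± 0.40 (adjusted p = 0.81). Srebf1, the lipogenic transcription factor whose messenger RNA feeds the SREBP1 pathway, held 241 and 406 CPM in WT and 297 and 354 CPM in W330R on day 2. On day 6 WT held 280.2 and 376 CPM, and W330R held 139 and 137 CPM. Srebf1 fell by 1.22 in W330R (log2, adjusted p = 0.0013), the WT change was 0.03 (adjusted p = 0.93), and the difference was -1.25 ± 0.28 (adjusted p = 0.141).

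Cidec, a lipid droplet protein that promotes droplet fusion, came closest to the threshold among the genes chosen by name. WT held 379 and 434 CPM on day 2 and 1143 and 1590 CPM on day 6, and W330R held 220.0 and 218 CPM on day 2 and 245 and 190 CPM on day 6. The level rose 3.35-fold in WT and its W330R change was -0.00 (log2, adjusted p = 1), a difference of -1.74 ± 0.28 (SE, adjusted p = 0.0503). Fasn, fatty acid synthase, held 324 and 386 CPM in WT and 320 and 180.8 CPM in W330R on day 2, and 605 and 739 CPM in WT and 172 and 129 CPM in W330R on day 6. It rose by 0.92 in WT (adjusted p = 0.015) and fell by 0.72 in W330R (adjusted p = 0.045), with a difference of -1.64 ± 0.35 (adjusted p = 0.12). The 2 libraries of W330R on day 2 were further apart for Fasn than those on day 6.

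Fabp4, the fatty acid binding protein of fat cells, had a difference that was large and not called. Its level was 2141 and 1946 CPM in WT and 1859 and 1418 CPM in W330R on day 2, and 1538 and 4514 CPM in WT and 570.1 and 764 CPM in W330R on day 6. The WT libraries on day 6 lay on both sides of the WT libraries on day 2. Fabp4 fell by 1.36 in W330R (log2, adjusted p = 0.037), and the difference was -1.80 ± 0.61 (SE, adjusted p = 0.405). The differences were -1.82 ± 0.63 (adjusted p = 0.41) for Plin1, the main lipid droplet coat protein of fat cells, -1.52 ± 0.72 (adjusted p = 0.614) for Lpl, lipoprotein lipase, -0.54 ± 0.46 (adjusted p = 0.871) for Scd1, a desaturase, and -0.47 ± 0.80 (adjusted p = 0.973) for the fatty acid transporter Cd36.

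The secreted products of mature fat cells and the insulin-responsive glucose transporter rose in both genotypes and ended lower in W330R, except that the day 6 difference of Retn was not called. Adipoq, which encodes adiponectin, went from 38.2 and 47.8 CPM to 762 and 1298 CPM in WT, and from 15.8 and 31.0 CPM to 269 and 301 CPM in W330R. Cfd, which encodes adipsin, went from 2.91 and 2.29 CPM to 534 and 579 CPM in WT, and from 0.651 and 3.20 CPM to 120 CPM in both libraries in W330R. Slc2a4, which encodes GLUT4, went from 4.28 and 4.69 CPM to 44.97 and 52.7 CPM in WT, and from 1.41 and 1.33 CPM to 7.30 and 9.36 CPM in W330R. The rise in W330R was 3.64 (log2, adjusted p = 7.1e-05) for Adipoq, 5.87 (adjusted p = 0.00016) for Cfd and 2.60 (adjusted p = 0.00025) for Slc2a4, and the differences from WT were -0.92 ± 0.43 (adjusted p = 0.604), -1.89 ± 0.84 (adjusted p = 0.574) and -0.84 ± 0.42 (adjusted p = 0.643). Retn, which encodes resistin, had a difference of -1.17 ± 0.78 (adjusted p = 0.78). Lep, which encodes leptin, held 0 counts in all 8 libraries, which allows up to between 0.0632 and 0.221 CPM in a library at a floor of 3 counts, for counting error only, and it was not tested.

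**Figure D3:**
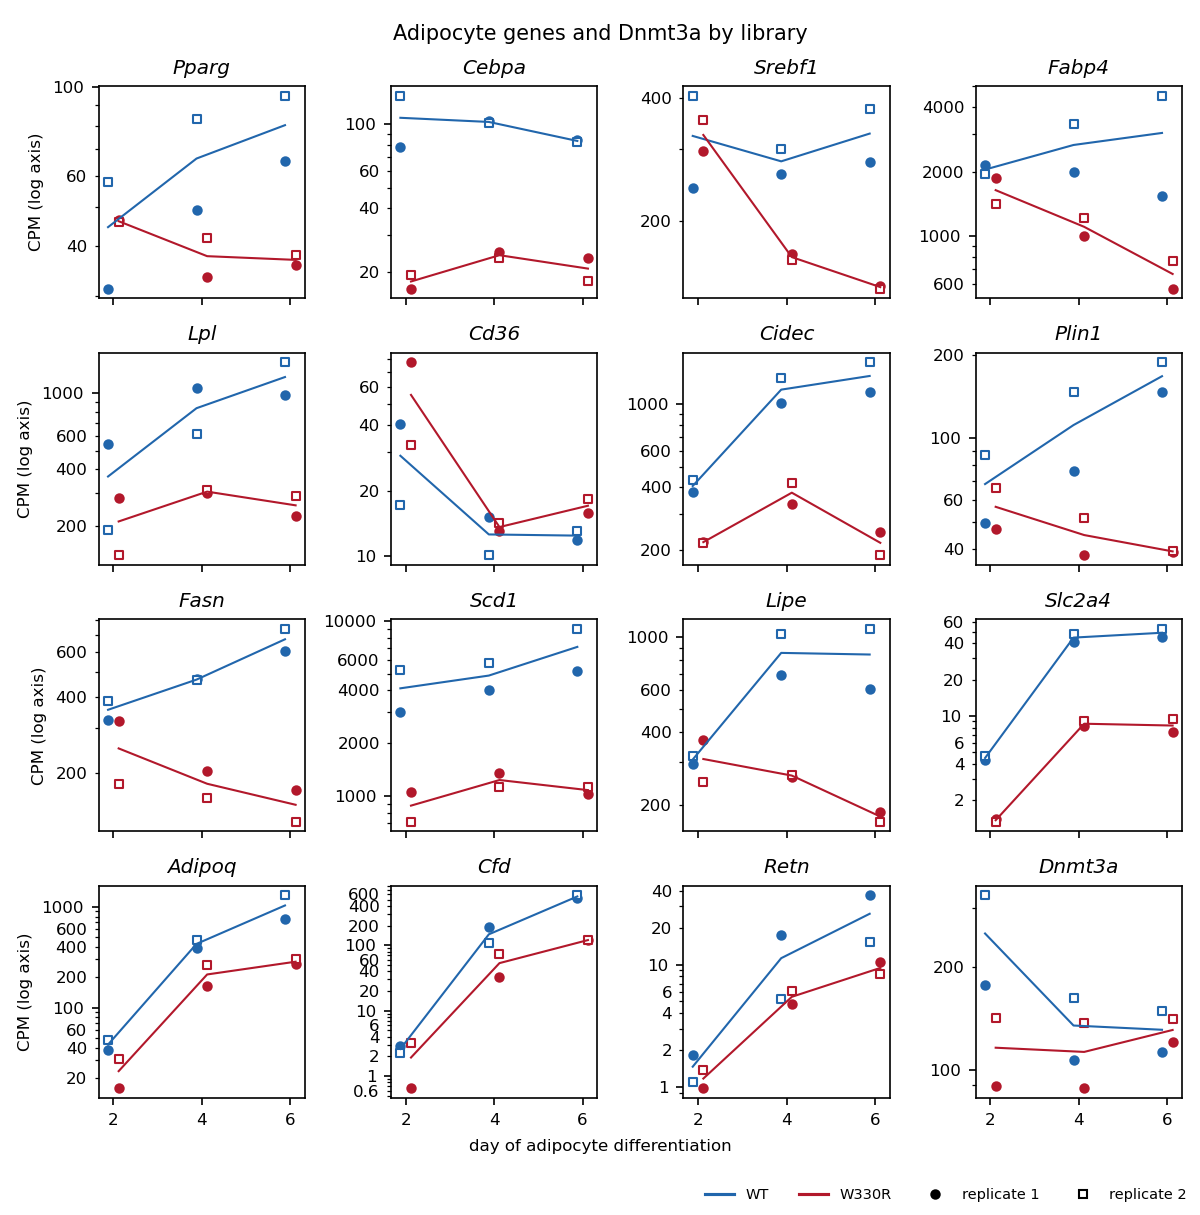
CPM on a log axis of 15 adipocyte genes and Dnmt3a on days 2, 4 and 6, with 2 libraries for each genotype and day as points and their mean as a line (WT blue, W330R red). W330R lies below WT on day 6 for most of them, Cebpa, Scd1, Cidec and Slc2a4 are lower in W330R already on day 2, and the genotypes are furthest apart in Dnmt3a on day 2.

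Genes of 31 lists for the pathways and cell states of this system were then described by their counts and medians. Of the 671 list entries tested 664 were distinct genes, and edgeR called 3 of these (0.0763% of all genes). At an unadjusted p under 0.05, 5.54% of all genes were lower and 2.97% higher, or 8.51% in both directions. These shares are the background for the counts at that threshold that follow. For counts of members with a negative difference, the background was 50.1% of all genes. For the counts of rising and falling members the background was 16.7% and 13.8% of all genes in WT and 15.5% and 13.8% in W330R, and for members lower or higher in W330R it was 1.96% and 3.0% on day 2 and 7.09% and 3.47% on day 6. Where a median is followed by a range, the range is over the 16 alternatives, 8 of which leave out 1 library. Members of a list are not replicates of a genotype.

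Lipogenesis and triglyceride synthesis held 2 of the called genes, Thrsp and Slc25a1, among 24 tested. Of the 24, 22 had a negative difference and the median was -0.87. There were 13 lower and 0 higher at an unadjusted p under 0.05, and DESeq2 called 9 lower and 0 higher. In WT 12 rose and 2 fell, and in W330R 5 rose and 6 fell. On day 2, 6 of the 24 were already lower in W330R (1.96% of all genes), and on day 6 19 were (7.09% of all). The median of W330R minus WT went from -0.42 on day 2 to -1.65 on day 6. Lipolysis, the release of fatty acids from stored fat, had 13 members with a median of -1.36 (-1.49 to -0.72, nearest to 0 without WT day 6 replicate 2), of which 11 were negative. EdgeR called 0 of them, with 7 lower and 1 higher at an unadjusted p under 0.05, and DESeq2 called 3 lower. On day 2, 3 of the 13 were already lower in W330R, and on day 6 9 were. Lipe, hormone-sensitive lipase, held 297 and 320 CPM in WT and 373 and 248 CPM in W330R on day 2, and 608 and 1081 CPM in WT and 187 and 170.0 CPM in W330R on day 6, so that the genotypes overlapped on day 2 and were apart on day 6. It rose by 1.44 in WT (log2, adjusted p = 0.0064), its W330R change was -0.80 (adjusted p = 0.081), and the difference was -2.24 ± 0.45 (SE, adjusted p = 0.113).

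Lipid droplet proteins had a median of -0.74 over 14 tested (-0.88 to -0.46), with 0 called by edgeR, 5 lower and 0 higher at an unadjusted p under 0.05 and 3 lower by DESeq2. Fatty acid uptake and binding had a median of -0.47 over 15, with 0 called by edgeR, 4 lower and 2 higher at an unadjusted p under 0.05 and 1 lower by DESeq2. That median was close to 0 without W330R day 2 replicate 1 (-0.02, with 8 of 15 negative) and was -0.12 without WT day 6 replicate 2. Its member with the smallest p was Fabp5, a fatty acid binding protein, with 467 and 459 CPM in WT and 434 and 290 CPM in W330R on day 2, and 652 and 820 CPM in WT and 162 and 118 CPM in W330R on day 6. Fabp5 fell by 1.37 in W330R (adjusted p = 0.0094), and the difference was -2.04 ± 0.46 (SE, adjusted p = 0.151). Adipokines and other secreted adipocyte proteins had a median of -0.36 over 21 (-0.58 to -0.21), with 0 called by edgeR, 2 lower at an unadjusted p under 0.05 and 0 by DESeq2. Their member with the smallest p was the apolipoprotein gene Apoc1, which held 0.153 and 0.150 CPM in WT and 0.434 and 0.342 CPM in W330R on day 2 and 3.84 and 4.23 CPM in WT and 1.33 and 1.24 CPM in W330R on day 6. Its WT libraries on day 2 held 3 counts or fewer, and no fold change is given. Adipogenic transcription factors had a median of -0.19 over 24 (-0.31 to -0.10), with 0 called by edgeR, 4 lower at an unadjusted p under 0.05 and 1 lower by DESeq2.

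The fatty acid oxidation and tricarboxylic acid cycle list, which holds the mitochondrial enzymes that burn fatty acids, had a negative difference in all 33 members. The median was -0.79, and 31 of the 33 were negative both within replicate 1 and within replicate 2. EdgeR called 0 of them, with 24 lower and 0 higher at an unadjusted p under 0.05, and DESeq2 called 9 lower and 0 higher. In WT 6 members rose and 0 fell, with 0.24 as the median change, and in W330R 0 rose and 15 fell, with a median of -0.38. On day 6 28 of the 33 were lower in W330R (7.09% of all genes), and the median of W330R minus WT went from -0.27 on day 2 to -1.07 on day 6. Cpt2, which passes fatty acids into the mitochondrion, had the smallest p, with 106 and 103 CPM in WT and 93.8 and 98.2 CPM in W330R on day 2, and 150 and 188 CPM in WT and 76.6 and 78.4 CPM in W330R on day 6. The WT libraries on day 6 were the highest and the W330R libraries on day 6 the lowest. Cpt2 rose by 0.69 in WT (log2, adjusted p = 0.0012), its W330R change was -0.31 (adjusted p = 0.059), and the difference was -0.995 ± 0.16 (SE, adjusted p = 0.0503). 1 member, Eci1, held 3 counts or fewer in both libraries of a condition. It is part of the counts and medians above, but the size of its own fitted value is not read. With Eci1 set to a floor of 3 counts, all 33 differences were still negative and the median was still -0.79.

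The nuclear-encoded respiratory chain subunits, which make up the complexes of oxidative phosphorylation, were close to this pattern at a smaller size. All 46 had a negative difference, 45 of them within both replicates, with a median of -0.61. EdgeR called 0, with 21 lower and 0 higher at an unadjusted p under 0.05, and DESeq2 called 2 lower. The WT median change was -0.03, with 2 members rising and 1 falling, and the W330R median was -0.58, with 0 rising and 28 falling. On day 6 43 of the 46 were lower in W330R (7.09% of all genes), against 1 on day 2 (1.96% of all), and the median of W330R minus WT went from -0.41 to -1.03. Uqcrc1, a core subunit of complex III, held 84.6 and 109 CPM in WT and 95.2 and 99.7 CPM in W330R on day 2, and 119 and 147 CPM in WT and 76.4 and 78.2 CPM in W330R on day 6. The W330R libraries on day 6 were the lowest of the 8. Its difference was -0.79 ± 0.19 (log2, SE, adjusted p = 0.167). The 13 respiratory chain genes encoded in mitochondrial DNA, added after the values were seen, had a median of -0.25 (-0.50 to 0.18) with 10 negative, and edgeR, the unadjusted threshold and DESeq2 each called 0 of them.

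**Figure D4:**
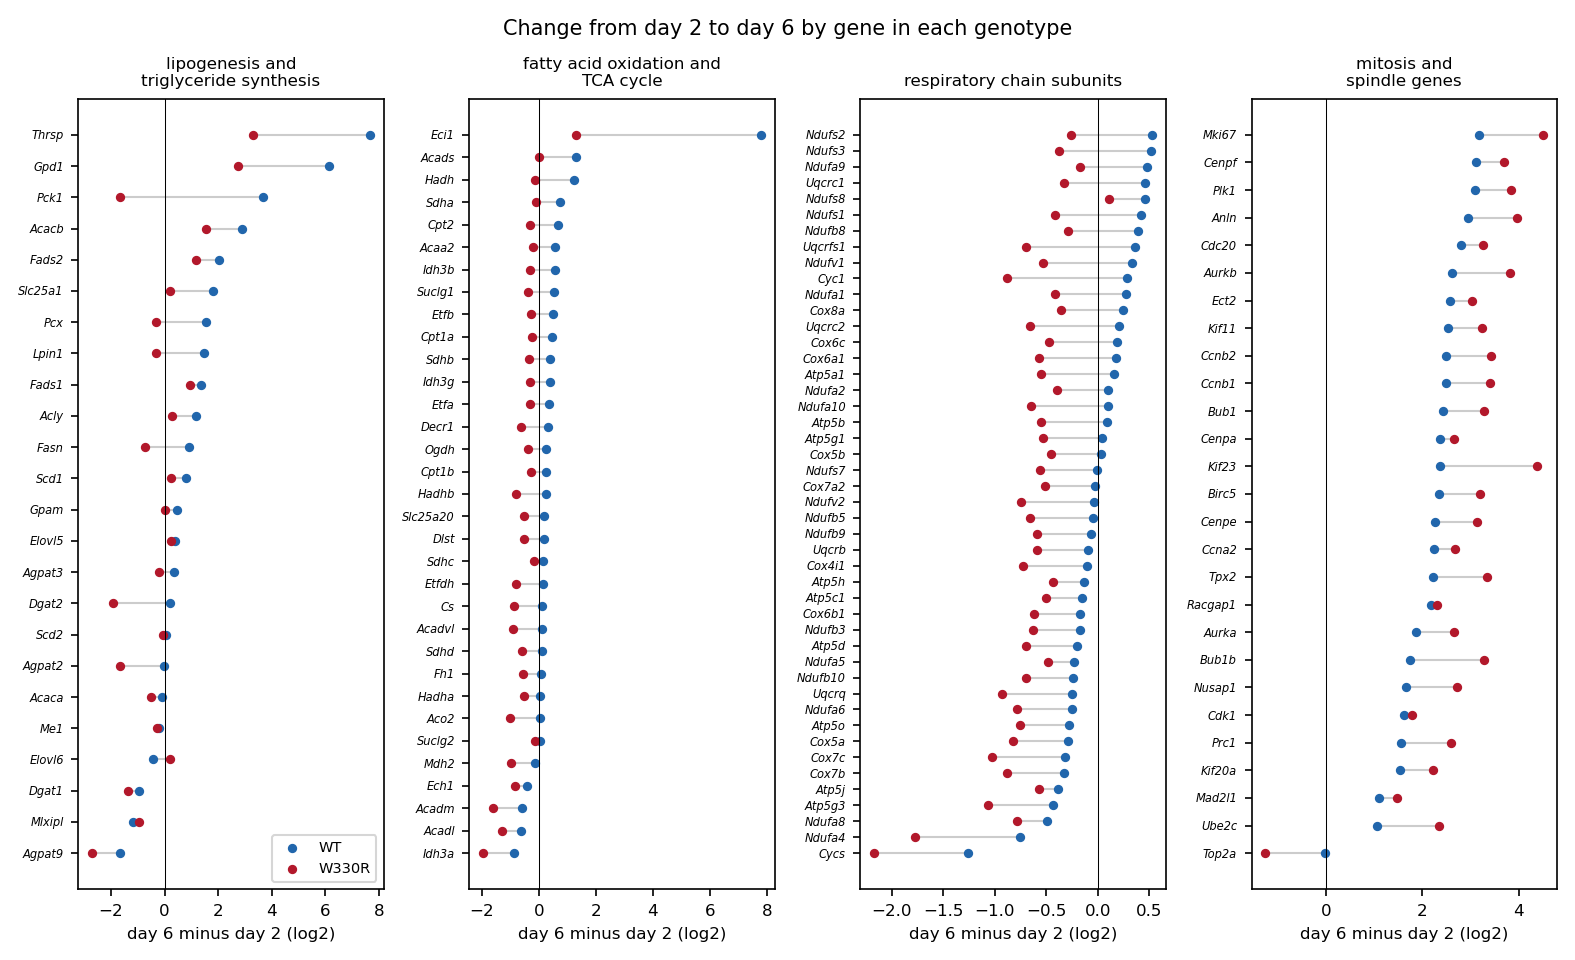
Log2 change from day 2 to day 6 of each tested member of 4 gene lists, WT in blue and W330R in red, joined by a line for each gene and ordered by the WT change. W330R lies to the left of WT for all members of the oxidation and respiratory chain lists and to the right for 26 of the 27 mitosis and spindle genes. Eci1, with 3 counts or fewer in a condition, is drawn and counted, but the size of its change is not read.

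The mitosis and spindle genes were on the other side. In WT 24 of 27 rose and in W330R 25 rose, and the median change was 2.34 in WT and 3.20 in W330R. The difference was positive for 26 of the 27, for 25 within both replicates, with a median of 0.85. EdgeR called 0, with 6 higher and 0 lower at an unadjusted p under 0.05, and DESeq2 called 0. Ube2c, which serves the anaphase-promoting complex, held 7.88 and 8.38 CPM in WT and 5.80 and 3.54 CPM in W330R on day 2, and 24.0 and 12.7 CPM in WT and 26.6 and 19.7 CPM in W330R on day 6. It started lower in W330R and overlapped WT on day 6, with a difference of 1.28 ± 0.38 (log2, SE, adjusted p = 0.309). DNA replication and G1/S genes had a median of 0.31 over 28 (0.16 to 0.53), with 0 called by edgeR, 5 higher at an unadjusted p under 0.05 and 0 by DESeq2. Their member with the smallest p, the replication factor Cdc45, held 6.27 and 12.1 CPM in WT and 3.58 and 2.89 CPM in W330R on day 2 and between 9.03 and 9.52 CPM in all 4 libraries on day 6, a difference of 1.41 ± 0.49 (adjusted p = 0.41).

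**Figure D5:**
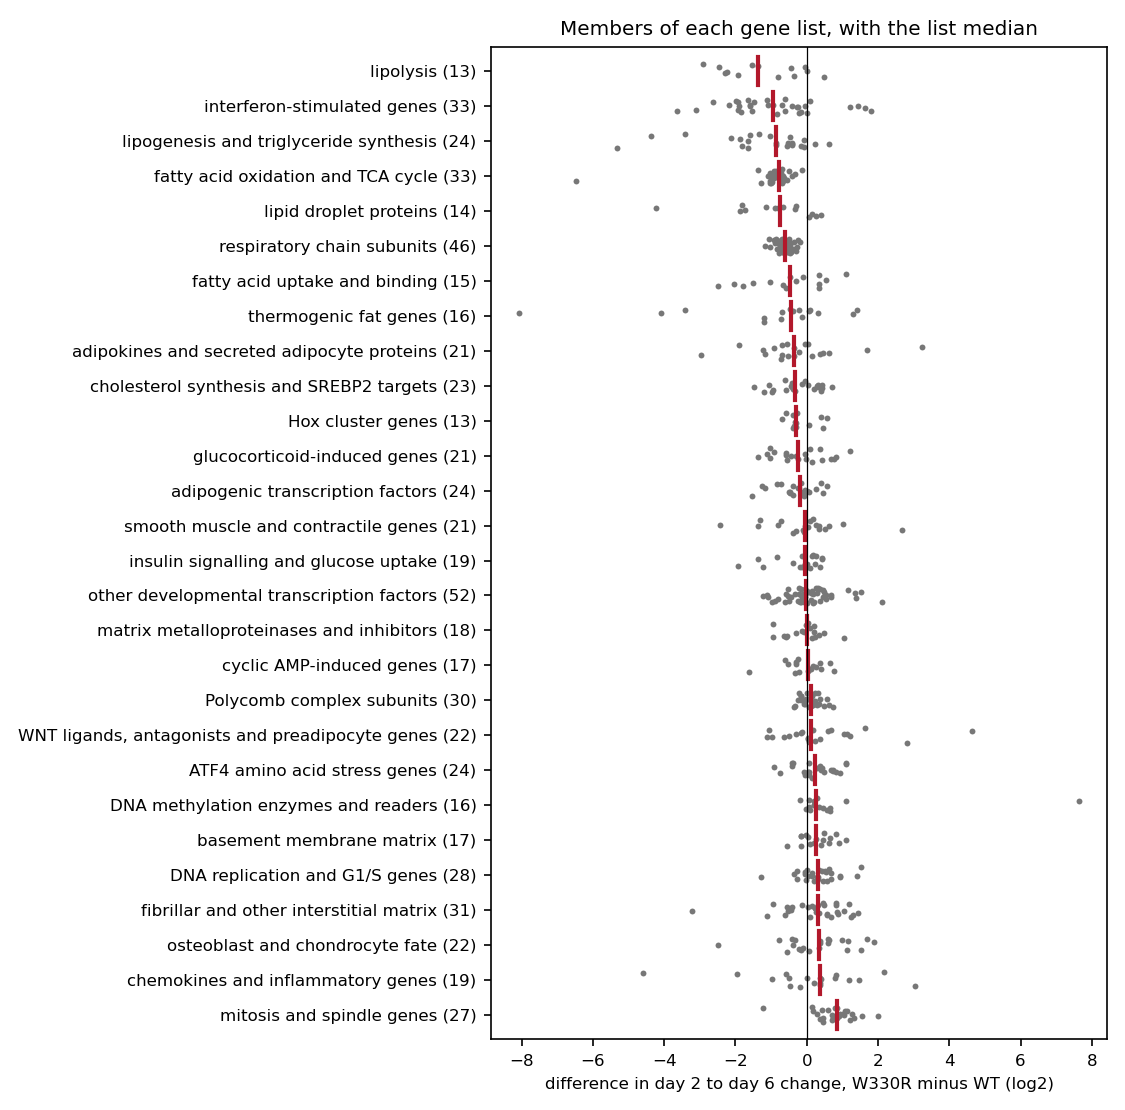
Difference in day 2 to day 6 change, W330R minus WT on the log2 scale, of each tested member of 28 gene lists (grey dots, jittered up and down) with the list median as a red bar and the number of members in brackets. The medians of the lipogenesis, lipolysis, oxidation and respiratory chain lists lie left of 0 and that of the mitosis list lies right of 0.

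Of the cholesterol synthesis and SREBP2 target genes 16 of 23 rose in WT and 14 in W330R, and the list held 1 gene called by edgeR, Insig1. On day 2, 7 of the 23 were already lower in W330R, and on day 6 12 were. The median difference was -0.32 (-0.45 to -0.01, nearest to 0 without WT day 2 replicate 1), with 6 lower and 0 higher at an unadjusted p under 0.05 and 2 lower by DESeq2. Acat2 was counted outside this list. Insulin signalling and glucose uptake genes had a median of -0.04 over 19 (-0.17 to 0.08), with 0 called by edgeR, 3 lower at an unadjusted p under 0.05 and 0 by DESeq2. Of this list the hexokinase gene Hk2 fell in W330R by 1.51 (adjusted p = 0.0037) with a difference of -1.23 ± 0.42 (adjusted p = 0.395). Thermogenic fat genes had a median of -0.43 over 16 (-0.81 to -0.31), or -0.58 with 4 low members set to a floor of 3 counts, with 0 called by edgeR, 4 lower at an unadjusted p under 0.05 and 1 lower by DESeq2. The respiratory chain isoform gene Cox8b, which marks thermogenic fat, held 0.765 and 0.299 CPM in WT and 0.325 and 0.457 CPM in W330R on day 2, and 29.1 and 83.8 CPM in WT and 2.07 and 2.90 CPM in W330R on day 6. It rose in both genotypes, and the difference was -4.09 ± 1.06 (adjusted p = 0.221).

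The matrix and mesenchymal lists held many genes that rose in both genotypes. Of the fibrillar and other interstitial matrix genes 21 of 31 rose in WT and 23 in W330R, with a median difference of 0.33 (0.08 to 0.53), 0 called by edgeR, 3 higher and 2 lower at an unadjusted p under 0.05 and 1 higher by DESeq2. Basement membrane matrix had a median of 0.25 over 17 (0.09 to 0.41, 0 called by edgeR, 2 higher at an unadjusted p under 0.05, 0 by DESeq2) and matrix metalloproteinases and inhibitors one of 0.00 over 18 (-0.27 to 0.35, 0 called by edgeR, 1 lower, 0 by DESeq2). Smooth muscle and contractile genes had a median of -0.06 over 21 (-0.17 to 0.22, 0 called by edgeR, 2 higher and 1 lower, 1 lower by DESeq2), which becomes 0.05 with the 4 members that have a condition at 3 counts or fewer set to that floor. Osteoblast and chondrocyte genes had a median of 0.35 over 22 (0 called by edgeR, 1 higher, 0 by DESeq2), and WNT ligands, antagonists and preadipocyte genes one of 0.12 over 22, or 0.20 with 1 low member at the floor (0 called by edgeR, 2 higher and 1 lower, 1 each way by DESeq2). The osteoblast median turned to -0.56 without W330R day 6 replicate 2 and to -0.21 without WT day 2 replicate 1, with 18 of 22 members negative each time, and the WNT median ranged from -0.32 to 0.72. The member of the WNT list with the smallest p was Pdgfrb, a receptor of mesenchymal cells, with 47.6 and 31.3 CPM in WT and 112 and 101 CPM in W330R on day 2, and 261 and 240 CPM in WT and 393 and 315 CPM in W330R on day 6. Pdgfrb rose in both genotypes and was higher in W330R on day 2, and the difference in change was -0.97 ± 0.23 (log2, SE, adjusted p = 0.167).

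Glucocorticoid-induced genes, which respond to dexamethasone, had 11 members falling in each genotype among 21 tested, with a median difference of -0.25 (-0.27 to -0.03, 0 called by edgeR, 1 higher at an unadjusted p under 0.05, 0 by DESeq2). Mt2, a metallothionein gene, went from 508 and 740 CPM to 21.0 and 78.1 CPM in WT and from 245.5 and 373 CPM to 34.4 and 68.1 CPM in W330R, a fall in both. Cyclic AMP-induced genes, which respond to isobutylmethylxanthine, had a median of 0.03 over 17 (-0.30 to 0.16, 0 called by edgeR, 1 lower, 0 by DESeq2). That 1 gene was Rgs2, a regulator of G protein signalling, which fell by 1.20 in WT (adjusted p = 0.021) and by 2.83 in W330R (adjusted p = 0.00036), with a difference of -1.63 ± 0.48 (adjusted p = 0.308).

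EdgeR called no gene in the lists tied to chromatin and identity. DNA methylation enzymes and readers had a median of 0.25 over 16 (0.18 to 0.52), with 14 positive (0 called by edgeR, 2 higher at an unadjusted p under 0.05, 1 higher by DESeq2, which was Dnmt3a). Polycomb complex subunits had a median of 0.11 over 30 (0.05 to 0.21, 0 called by edgeR, 2 higher, 0 by DESeq2), and Hox cluster genes one of -0.31 over 13 (-0.62 to 0.10, 0 called by edgeR, 0 at the unadjusted threshold, 0 by DESeq2). Other developmental transcription factors had a median of -0.03 over 52 (-0.12 to 0.19), or -0.04 with 4 low members at the floor (0 called by edgeR, 3 higher and 2 lower, 0 by DESeq2), although 10 of them were higher in W330R on day 2 (3.0% of all genes) and 10 on day 6 (3.47% of all). Interferon-stimulated genes, a group of antiviral genes, had a median of -0.95 over 33 (0 called by edgeR, 1 lower, 0 by DESeq2), or -0.62 with 6 low members at the floor. That median was -1.76 without WT day 6 replicate 1, -0.28 without WT day 6 replicate 2 and, with 18 of 33 negative, -0.31 without WT day 2 replicate 1. Without W330R day 2 replicate 1 it was -0.49, and without W330R day 2 replicate 2 it was -1.31. The interferon-stimulated genes were above WT in W330R by a median of 3.10 on day 2 and 1.43 on day 6, with 5 (3.0% of all genes) and 6 (3.47% of all) of the 33 called higher. In these day medians the low members were not set to the floor. Ifi27, the member with the smallest p for the difference, held 67.9 and 89.4 CPM in WT on day 2. In W330R on day 2 it held 260 CPM in replicate 1 and 84.8 CPM in replicate 2. ATF4 amino acid stress genes had a median of 0.23 over 24 (0.13 to 0.43, 0 called by edgeR, 4 higher and 1 lower, 0 by DESeq2) and chemokines and inflammatory genes one of 0.36 over 19 (0.09 to 0.40), or 0.23 with 5 low members at the floor (0 called by edgeR, 2 higher, 0 by DESeq2). The macrophage, endothelial and skeletal muscle lists had 4 tested members each and 0 called by edgeR, with 1 lower muscle gene at an unadjusted p under 0.05 and 0 by DESeq2.

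The overall size of the change in each genotype was read on genes called in libraries outside the comparison, although the same fit, with its filter, spread and replicate block, also held the 8 libraries. The set came from the libraries labelled as the W330R-R181E double mutant, whose columns in the count table name a different amino acid at the second mutated site, so that the exact second mutation is uncertain. In this double mutant, 2216 genes rose from day 2 to day 6 (15.4% of those tested) and 1782 fell (12.4%). The median change of the rising genes was 1.26 in WT and 1.13 in W330R, with 1.23 and 1.16 for WT and 1.15 and 1.07 for W330R within replicates 1 and 2. The median change of the falling genes was -0.67 in WT and -0.72 in W330R. By its label the double mutant also carries W330R, so genes that rose in WT but not in lines with W330R are left out of the set. Slc25a1 and Preb, for example, rose in WT and were not called in the double mutant (edgeR, adjusted p = 0.48 and 0.67). The medians therefore cannot show whether the change as a whole was of like size in both genotypes. Against the same WT libraries, edgeR called 0 genes for the difference between the change in the double mutant and in WT (915 at an unadjusted p under 0.05, 6.34%), and no other tool was run on it.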

How the data were processed

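RNA was sequenced from 22 samples of C3H 10T1/2 cells. The authors deposited raw read counts per gene symbol as whole numbers, without normalization. The submitters' processing notes name GRCm39, kallisto and DESeq2 1.40 without giving their roles, and strand use is not given in the sources used here. The paper at hand describes no RNA-seq. Columns of the count table were matched to samples by genotype, day and replicate, and those of the double mutant disagree with the labels on the second substitution.

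Genes passed edgeR 4.0.16 (R 4.3.3) filterByExpr (minimum count 10, minimum total 15), which left 14423 of 30170. A quasi-likelihood model with TMM scaling was fitted to the 18 libraries of days 2 to 6, with 1 mean per condition and the replicate number as a block, which left 8 residual degrees of freedom. Calls used a Benjamini-Hochberg adjusted p under 0.05 over all genes tested. SE was the log2 value divided by the square root of F. Scripts were tested on simulated counts with known differences. The test recovered 33 of 40 genes given a log2 difference of -4, 21 of 39 given -2 and 8 of 40 given -1. On the other side it recovered 4 of 39 given 1 and 31 of 39 given 2. Intervals and floors (3 counts) cover counting error only.

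The labels do not say what a replicate number shares. Deviations of same-numbered samples in the 4 conditions correlated at 0.027 to 0.297 (median 0.148, 4 of 6 pairs above 0.1). The comparison was set with the block, and a fit without it is given as an alternative.

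Named genes were 15 chosen by name, the called genes with the largest differences of each sign (up to 10, mean log2 CPM of at least 1, same sign in both replicates, no condition with both libraries at 3 counts or fewer, no predicted genes), and from each list up to 3 called members or the member with the smallest p. The comparison, lists and genes were chosen with earlier results of these data known. Zfp652, Abi3 and Eci1 were named after their values were seen. Gene overlap and shared 50-base stretches come from GENCODE vM21 on GRCm38, promoters from RefSeq on GRCm38.p6.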

Additional observations from a re-analysis of the deposited data

Results flagged for a closer look

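Each of the 11 called genes changed differently from day 2 to day 6 in W330R than in WT by the test of the difference itself (edgeR, adjusted p under 0.05). The difference on the log2 scale, W330R minus WT, was -4.36 for Thrsp, -3.14 for Phospho1, -2.29 for Nov, -2.08 for Sdpr and -2.03 for Gpx8. It was -1.74 for Plscr2, -1.58 for Slc25a1, -1.49 for Insig1, -1.45 for Acat2 and -1.31 for Preb. Lrrn4cl was the only gene on the other side, with 3.0.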

How the results depend on the processing

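The count of 11 differing genes depended on the fit. It was 5 without the replicate block (all 5 among the 11), 40 with a block within each genotype, 24 with all 22 libraries and 0 with only the 8 libraries of the comparison (922 at an unadjusted p under 0.05), where fewer libraries estimate the spread. DESeq2 called 137 lower and 44 higher, against 10 and 1. Leaving out 1 library gave 0 to 27 genes. The count was 0 without either WT library of day 2, either W330R library of day 2, or replicate 2 of day 6 in WT or W330R (753 to 1346 at an unadjusted p under 0.05), 6 without W330R day 6 replicate 1 and 27 without WT day 6 replicate 1. A block within each day, RLE scaling and no filter gave 15, 11 and 12. For the change within WT, leaving out 1 library gave 2389 to 4382 genes, lowest without WT day 2 replicate 2 (2389), WT day 6 replicate 1 (2494) and WT day 6 replicate 2 (2855), and within W330R 1547 to 4113, lowest without W330R day 2 replicate 1 (1547) and W330R day 6 replicate 2 (1931). The direction of the 11 genes was the same in all 16 alternatives, while the call was lost in 24 of 88 cases under other settings and in 75 of 88 when a library was left out. Adjusted p ranged from 4.36e-13 to 0.944 over them. Among the other named genes the sign turned 3 times, for Cd36 (-1.01 to 0.073 over the left-out libraries) and Scd1 (-0.968 to 0.064) without W330R day 2 replicate 1 and the macrophage gene Lyz2 (-1.99 to 0.032) without WT day 2 replicate 2, and a call was gained 23 times. The block changed no direction of a named gene. List medians kept their sign under all 16 alternatives for the oxidation (-1.07 to -0.53), respiratory chain (-0.90 to -0.35), lipogenesis (-1.001 to -0.68) and mitosis (0.54 to 1.07) lists. They changed sign under at least 1 alternative for the osteoblast (-0.56 to 0.72), WNT (-0.32 to 0.72), Hox (-0.62 to 0.10), metalloproteinase (-0.27 to 0.35), insulin signalling (-0.17 to 0.08), smooth muscle (-0.17 to 0.22), cyclic AMP (-0.30 to 0.16), developmental factor (-0.12 to 0.19), macrophage (-0.50 to 0.16), endothelial (-0.12 to 0.84) and mitochondrially encoded (-0.50 to 0.18) lists.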

Other observations

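The W330R-R181E double mutant carried no weight in the comparison, though its libraries were part of the fit. Its libraries on days 2 and 6 give its own change against the same WT libraries, so that both comparisons share their controls. No gene of this difference was called, as given above. The genes below were chosen after their values were seen, and a likeness between both differences is not independent, since the WT libraries are the same. Thrsp went from 0.665 and 0.297 CPM to 14.8 and 12.53 CPM in the double mutant, a difference from the WT change of -2.72, beside -4.36 in W330R. Slc25a1 went from 217 and 216 CPM to 244 and 239 CPM, a difference of -1.63, beside -1.58. Plscr2 went from 1.66 and 1.59 CPM to 34.0 and 24.7 CPM, a difference of 0.73, beside -1.74 in W330R. On day 2 its level in the double mutant was close to WT (1.84 and 1.95 CPM) and below W330R (15.5 and 8.94 CPM).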
